A study of Mus musculus with 6 samples.

Results

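The 10 genes described here encode proteins that store fatty acids in lipid droplets, release them, take them up or pass them to mitochondria. They are *Pnpla2*, *Abhd5*, *G0s2*, *Lipe*, *Plin2*, *Plin3*, *Cd36*, *Lpl*, *Fabp3* and *Cpt1b*, found by symbol among the 55421 genes of the count table, and 10 of the 10 passed the low-count filter that left 19005 genes for testing. They were chosen by name from the pathway with the CUG200 against CUG5 differences of these libraries known, that of *G0s2* among them, so their differences between the groups are given as a description and without p-values.

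RNA was sequenced from C2C12 cells, a mouse myoblast line, at differentiation day 4, with 3 libraries from the normal group (CUG5) and 3 libraries from the DM1 group (CUG200). Both groups carry a stably transfected pcDNA plasmid that expresses *GFP*, with 5 CTG repeats behind it in CUG5 cells and 200 CTG repeats behind it in CUG200 cells, and both were selected with G418 and differentiated in horse serum with added insulin. DM1 is myotonic dystrophy type 1, in which a long CTG repeat in *DMPK* is transcribed into CUG-repeat RNA. The model holds the repeat in a *GFP* transcript and not in *DMPK*, and the study calls the libraries of a group biological replicates without saying whether they came from separate transfections or cultures, so the errors below measure the spread between these libraries.

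Muscle cells keep neutral lipid as triglyceride in droplets coated by perilipins. Adipose triglyceride lipase (*Pnpla2*) takes the first fatty acid off a triglyceride, is activated by the protein of *Abhd5* and is inhibited by the protein of *G0s2*, and hormone-sensitive lipase (*Lipe*) acts mainly on the diacylglycerol that remains. Fatty acids from outside are freed from lipoproteins by lipoprotein lipase (*Lpl*), enter with the help of the scavenger receptor CD36, are carried in the cytosol by the heart-type binding protein FABP3, and reach the mitochondrial matrix through the carnitine palmitoyltransferase CPT1B.

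The libraries held between 61707889 and 80957325 counts, where a count stands for 75 aligned bases. Mitochondrial genes took 9.04% of the counts in CUG5 library 1 and 8.90% in CUG200 library 3, against 12.3% to 13.5% in the other 4 libraries. Of the muscle markers, 13 of 16 were lower in CUG200 cells, and their summed level was 14553 to 17307 TPM (StringTie's level per length) in CUG5 libraries and 9413 to 11410 TPM in CUG200 libraries. Of 12 adipocyte markers, *Adipoq*, *Lep*, *Retn*, *Cfd*, *Fabp4* and *Cidec* were at 0 counts in the 6 libraries, while *Pparg* held 543 to 707, *Lipe* 290 to 430 and *Cebpa* 71 to 127 counts. The summed level of the 12 was between 10.2 and 15.0 TPM. In bulk RNA, fewer cells of a type and less RNA per cell cannot be told apart.

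The promoters of 8 of the 10 genes were found in the RefSeq promoter table (GRCm38.p6), in 9 windows of 300 bases that run from 250 bases before to 50 bases after a gene's start, with 2 windows for *Lipe*. Starts are those of RefSeq, and the windows of *Cd36*, *Lipe* and *Plin3* lie at starts far inside the spans that the count table gives for these genes. Other starts, such as those of *Fabp3* and *G0s2*, lie inside the spans too, but close to their ends. *Lpl* and *Cpt1b* had no entry. The windows were searched on both strands for letters known from muscle and lipid genes, and the matches are shown with 8 bases on each side, on the strand of the gene, with the match in capitals. CAGCTG, an E-box bound by myogenic factors such as the product of *Myod1*, lay in 2 of the 9 windows and in 16.3% of the 32851 windows of the table. The forkhead letters TGTTTAC lay in 1 of the 9 windows and in 3.65% of all windows. A DR1 element, the pair of AGGTCA half-sites with 1 base between them that PPAR and RXR bind, was found with at most 2 mismatches in 2 of the 9 windows and in 3.86% of all windows, and the MEF2 element in 0 of the 9 windows and in 3.19% of all windows. The G+C content of the 9 windows was between 43.0% for *Cd36* and 67.7% for *Abhd5*, against a median of 52.7% over all windows.

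*G0s2* E-box, chr1:193273407-193273412, 224 bases before the RefSeq start: ctcctcttCAGCTGcaccctga
*Plin2* E-box, chr4:86670070-86670075, 16 bases before the RefSeq start: gccccaggCAGCTGggctatca
*Plin2* DR1, chr4:86670272-86670284, 225 bases before the RefSeq start, opposite strand, 2 mismatches: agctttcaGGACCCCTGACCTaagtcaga
*Cd36* DR1, chr5:17835947-17835959, 63 bases before the internal RefSeq start, opposite strand, 2 mismatches: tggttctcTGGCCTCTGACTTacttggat
*Lipe* forkhead letters, chr7:25390225-25390231, 119 bases before the internal RefSeq start of the second window: ctgggctcTGTTTACagcatgtg

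*G0s2*, with the largest fold difference of the 10 genes, and *Plin2*, with nearly none, share the E-box letters. A match of letters is not a site in use, and binding was not measured in these cells.

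*G0s2* was higher and *Lpl* was lower in CUG200 cells, and the other 8 genes did not pass the test used for all genes (edgeR's quasi-likelihood test, adjusted p under 0.05). The 1 higher gene stands beside 7.13% of all tested genes called higher, and the 1 lower gene beside 8.73% called lower. With the study's second cutoff, an absolute log2 fold change over 1, *G0s2* was the 1 gene called higher, beside 1.36% of all genes, and 0 of the 10 genes were called lower, beside 0.816%. In CPM, the 3 libraries of each group did not overlap for 2 genes that were higher in CUG200 cells (*G0s2* and *Lipe*) and for 3 that were lower (*Lpl*, *Fabp3* and *Plin3*). Over all tested genes, the groups did not overlap in 17.9% with higher and in 19.3% with lower CUG200 values. Since the choice of the 10 genes rests on this contrast, nothing is read from these counts. Where 1 of the 10 genes is said to pass or not pass the test, this describes its values and is not evidence.

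**Figure D1:**
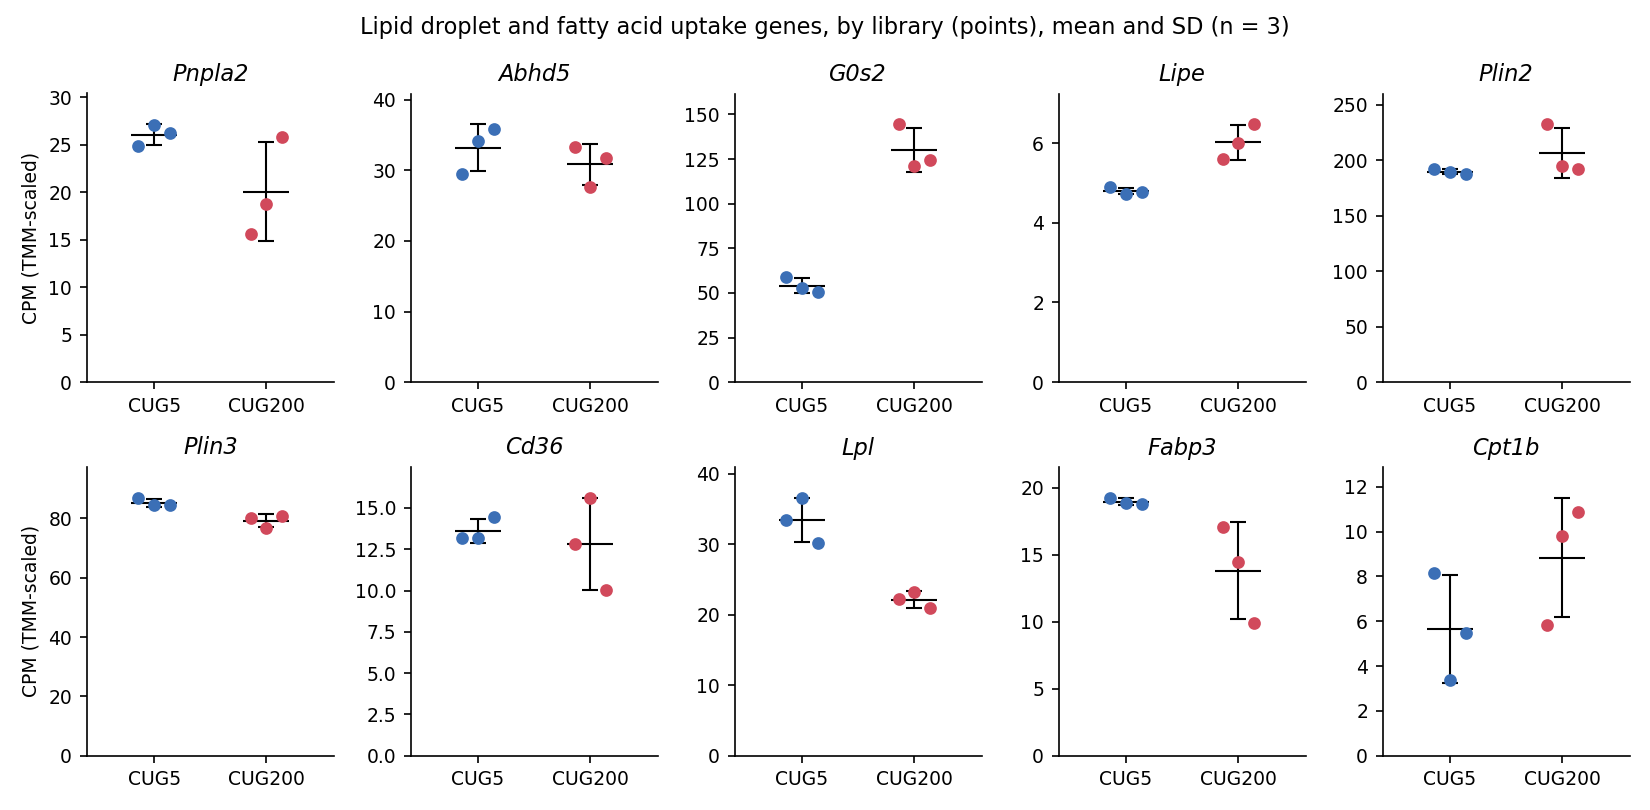
Level of each of the 10 genes in CPM (counts scaled to the library total with TMM factors, axes from 0) in the 3 CUG5 libraries (blue) and the 3 CUG200 libraries (red), with the mean and SD as bars. G0s2 lay between 50.8 and 59.0 CPM in CUG5 and between 121 and 144 CPM in CUG200, and Lpl between 30.2 and 36.5 CPM in CUG5 and between 20.9 and 23.2 CPM in CUG200.

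Of the 4 lipolysis genes, *G0s2* had the largest fold change. *G0s2* (ENSMUSG00000009633, GRCm38 chr1:193272161-193273217, minus strand), the inhibitor, was at 59.0, 52.7 and 50.8 CPM in CUG5 libraries 1, 2 and 3 and at 144, 121 and 125 CPM in CUG200 libraries 1, 2 and 3. Every CUG200 library was above every CUG5 library. The means (± SD, n = 3) were 54.2 ± 4.31 CPM in CUG5 and 130 ± 12.5 CPM in CUG200, and the log2 fold change was 1.26 with a standard error of 0.10. The deposited counts behind these values were 4961, 3234 and 3548 in CUG5 libraries and 10739, 8637 and 8284 in CUG200 libraries. Depth therefore does not limit this value, and no other annotated exon overlaps the gene.

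*Pnpla2* (ENSMUSG00000025509, chr7:141455198-141460743, plus strand), the lipase that the G0S2 protein inhibits, was at 24.8, 27.0 and 26.2 CPM in CUG5 libraries and at 15.6, 18.8 and 25.8 CPM in CUG200 libraries. CUG200 libraries 1 and 2 were below the CUG5 libraries and library 3 was among them, so the groups overlapped, and the log2 fold change was -0.38 with a standard error of 0.170. Without CUG200 library 3 it was -0.60 and passed the test, and without CUG200 library 1 it was -0.21. The spread was wider in the DM1 group, with a coefficient of variation of 25.9% against 4.26% in the normal group.

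*Abhd5* (ENSMUSG00000032540, chr9:122351608-122381524, plus strand), the co-activator of that lipase, was at 29.5, 34.2 and 35.9 CPM in CUG5 libraries and at 33.2, 27.6 and 31.7 CPM in CUG200 libraries. The groups overlapped and the log2 fold change was -0.11 with a standard error of 0.111. It went from -0.033 without CUG200 library 2, with a value close to that without CUG5 library 3, to -0.18 without CUG5 library 1. For log2(TPM + 0.1) it was -0.26, and in TPM the groups did not overlap (19.7 to 21.2 in CUG5 and 15.9 to 18.5 in CUG200). On that log2 scale the median over all tested genes was -0.094, beside 0.015 with edgeR on counts. *Lipe* (ENSMUSG00000003123, chr7:25379527-25398710, minus strand), hormone-sensitive lipase, was low, at 4.89, 4.72 and 4.78 CPM in CUG5 libraries and at 5.60, 5.99 and 6.47 CPM in CUG200 libraries. In CPM each CUG200 library was above each CUG5 library, by a mean ratio of 1.25 and a log2 fold change of 0.33 with a standard error of 0.132, which did not pass the test, while in TPM the groups overlapped (3.67 to 4.52 in CUG5 and 4.16 to 6.78 in CUG200). Exons on the opposite strand overlap *Abhd5* (*A730085K08Rik*) and *Lipe* (*4732471J01Rik*), and the strand setting of the counting is not given in the sources used here.

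Per length, the RNA level of *G0s2* was above that of *Pnpla2* in each library, and by more in CUG200 cells. Since *G0s2* was chosen with its difference known, its ratios to other genes partly restate that difference and are not further evidence. The ratio of *G0s2* to *Pnpla2* levels in TPM was 6.54, 4.15 and 5.39 in CUG5 libraries and 22.8, 18.2 and 11.8 in CUG200 libraries. The lowest CUG200 ratio, in library 3, was above the highest CUG5 ratio, and the means were 5.36 ± 1.20 and 17.6 ± 5.51 (SD, n = 3 each). The ratio of *Lipe* to *Pnpla2* was 0.245, 0.176 and 0.210 in CUG5 libraries and 0.406, 0.437 and 0.327 in CUG200 libraries, again without overlap. By contrast, the ratio of *Abhd5* to *Pnpla2* overlapped between the groups, at 1.05 ± 0.202 in CUG5 and 1.32 ± 0.407 in CUG200.

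**Figure D2:**
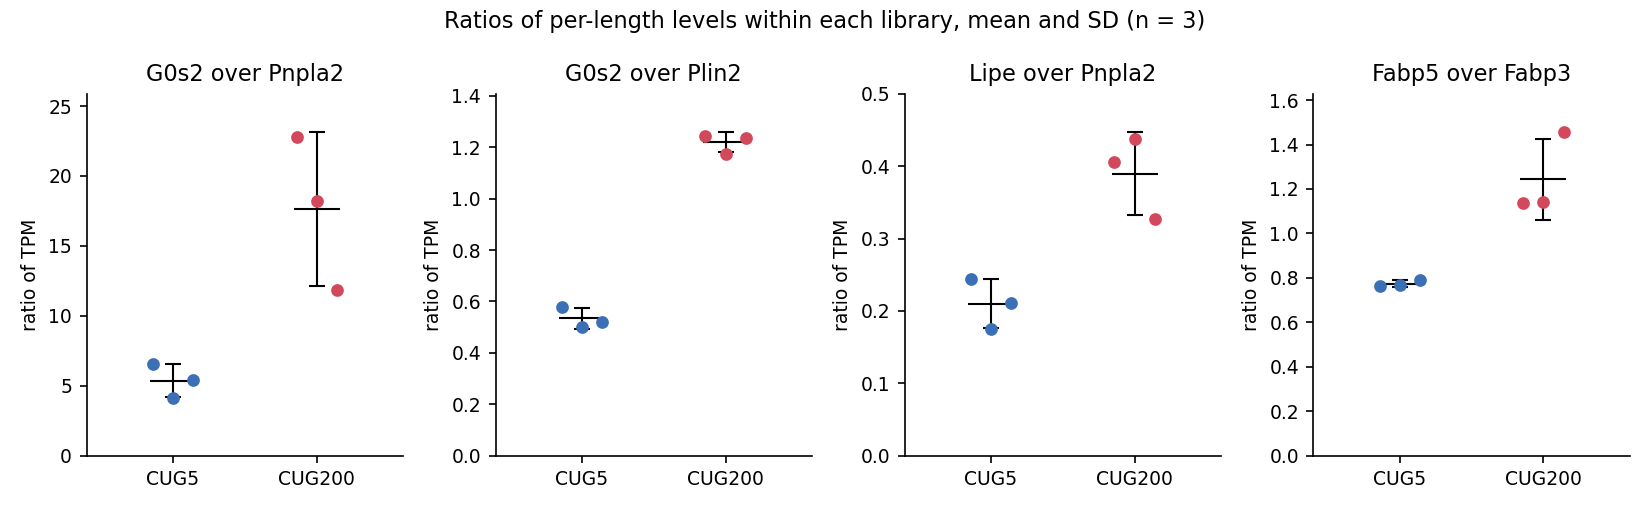
Ratios of TPM within each library (points), with the mean and SD (n = 3) of CUG5 (blue) and CUG200 (red), axes from 0. The ratio of G0s2 to Plin2 was between 0.501 and 0.580 in the CUG5 libraries and between 1.17 and 1.25 in the CUG200 libraries.

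Neither droplet coat gene passed the test. *Plin2* (ENSMUSG00000028494, chr4:86648386-86670060, minus strand), perilipin 2, the coat protein whose level follows the amount of stored lipid in many cells, was at 192, 189 and 187 CPM in CUG5 libraries and at 232, 195 and 192 CPM in CUG200 libraries. The DM1 libraries reached down to the highest normal library, and the log2 fold change was 0.12 with a standard error of 0.0946. For log2(TPM + 1) the log2 fold change was -0.055, close to the median over all tested genes on that scale, -0.062. With edgeR on counts that median was 0.015. Without CUG200 library 1 the log2 fold change of *Plin2* was 0.043. *Plin3* (ENSMUSG00000024197, chr17:56277476-56292873, minus strand), perilipin 3, which also moves between cytosol and droplets, was at 86.9, 84.5 and 84.6 CPM in CUG5 libraries and at 80.2, 76.6 and 80.8 CPM in CUG200 libraries. These ranges did not overlap in CPM, with a log2 fold change of -0.11 and a standard error of 0.0721, which did not pass the test. In TPM they overlapped (37.4 to 42.6 in CUG5 and 31.0 to 38.1 in CUG200), with a log2 fold change of -0.23 for log2(TPM + 1). The ratio of *Plin2* to *Plin3* in TPM was 4.97 ± 0.202 in CUG5 and 5.63 ± 0.419 in CUG200.

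Of the genes of lipoprotein lipolysis, binding and entry, *Lpl* was lower in CUG200 cells. *Lpl* (ENSMUSG00000015568, chr8:68880491-68907448, plus strand), the secreted lipase of lipoprotein triglyceride, was at 33.5, 36.5 and 30.2 CPM in CUG5 libraries and at 22.3, 23.2 and 20.9 CPM in CUG200 libraries. The lowest normal library was above the highest DM1 library, and the means (± SD, n = 3) were 33.4 ± 3.16 CPM and 22.1 ± 1.17 CPM. The log2 fold change was -0.59 with a standard error of 0.102. *Fabp3* (ENSMUSG00000028773, chr4:130308595-130315463, plus strand), the heart and muscle fatty acid binding protein, was at 19.2, 18.9 and 18.8 CPM in CUG5 libraries and at 17.1, 14.4 and 9.90 CPM in CUG200 libraries. The normal libraries were nearly equal, with a coefficient of variation of 1.31%, while the DM1 libraries spread over 26.4%, all of them below the normal group. The log2 fold change was -0.46 with a standard error of 0.181 and did not pass the test, and it was -0.27 without CUG200 library 3. It passed without CUG200 library 1, at -0.63, and on both TPM scales, at -0.60 for log2(TPM + 1) and -0.62 for log2(TPM + 0.1). The medians over all tested genes on these TPM scales were -0.062 and -0.094. Exons of *Gm10570* and *Zcchc17* on the opposite strand overlap *Fabp3*.

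*Cd36* (ENSMUSG00000002944, chr5:17781690-17888801, minus strand), the fatty acid receptor of the cell surface, was at 13.2, 13.2 and 14.4 CPM in CUG5 libraries and at 12.8, 15.6 and 10.03 CPM in CUG200 libraries. The DM1 libraries lay on both sides of the normal group, and the log2 fold change of -0.087 with a standard error of 0.162 turned to 0.059 without CUG200 library 3. *Cpt1b* (ENSMUSG00000078937, chr15:89416405-89425863, minus strand), the muscle form of the outer mitochondrial carnitine palmitoyltransferase, was at 8.14, 3.35 and 5.48 CPM in CUG5 libraries and at 5.82, 9.80 and 10.9 CPM in CUG200 libraries. It had the widest spread of the 10 genes in the normal group, with a coefficient of variation of 42.3%, and the groups overlapped. Its log2 fold change was 0.64 with a standard error of 0.354 and went from 0.37 without CUG5 library 2 to 1.00 without CUG5 library 1. *Cpt1b* shares exons on the same strand with the readthrough locus *Gm44502*, and with the counts of both summed the log2 fold change was 0.46, so the split of reads between these overlapping loci is uncertain.

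**Figure D3:**
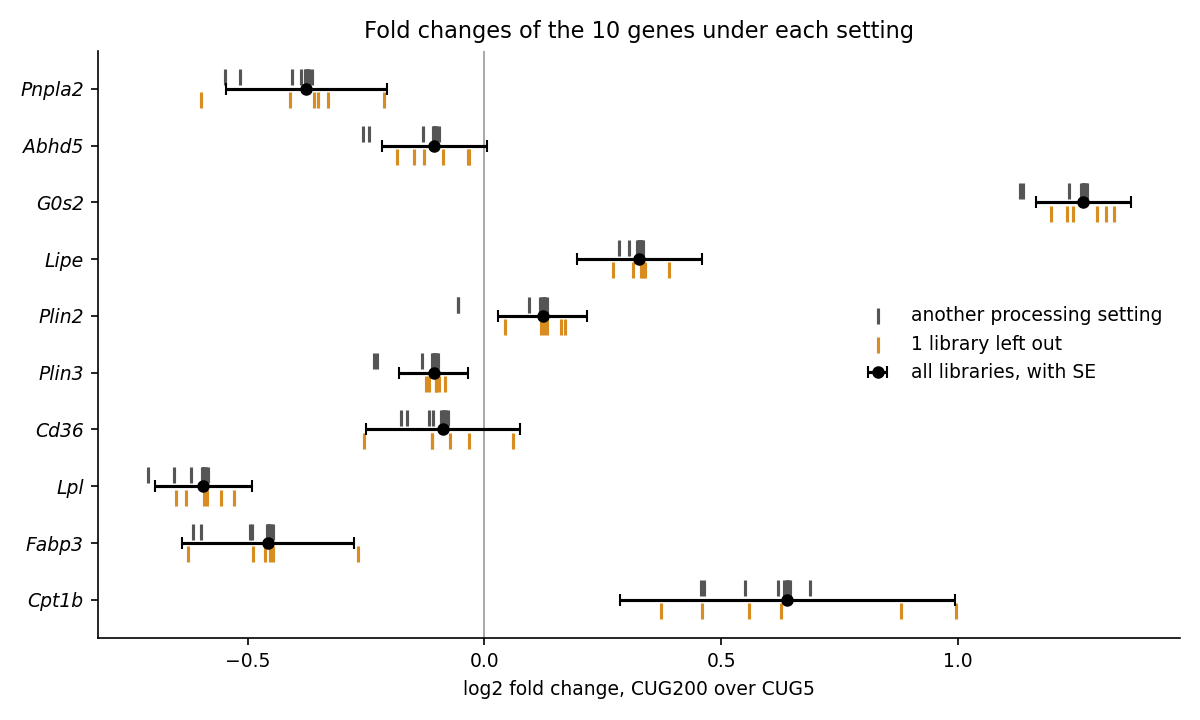
Log2 fold change (CUG200 over CUG5) of each of the 10 genes with all libraries (black point, bar: standard error), under each other processing setting (grey marks) and in the fits without 1 of the libraries (orange marks). G0s2 stayed between 1.13 and 1.33 and Lpl between -0.71 and -0.53, while the marks of Plin2 and Cd36 lay on both sides of 0.

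Ordered by mean TPM over the 6 libraries, the levels of the 10 genes were 192 for *Plin2*, 167 for *G0s2*, 36.5 for *Plin3*, 32.1 for *Fabp3*, 18.9 for *Abhd5*, 17.1 for *Pnpla2*, 11.7 for *Cd36*, 11.01 for *Lpl*, 4.73 for *Lipe* and 4.68 for *Cpt1b*. The first place differed between the groups. In CUG5 cells *Plin2* stood at 196 ± 14.3 TPM and *G0s2* at 105 ± 14.3 TPM, with *Plin2* higher in each library. In CUG200 cells *G0s2* stood at 230 ± 18.4 TPM and *Plin2* at 188 ± 10.02 TPM, with *G0s2* higher in each library. Of the neighbours in this order, *Abhd5* and *Pnpla2*, and *Lipe* and *Cpt1b*, had overlapping ranges in both groups. *Plin3* and *Fabp3*, and *Cd36* and *Lpl*, overlapped in CUG5 libraries alone, and *Pnpla2* and *Cd36* in CUG200 libraries alone.

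The 10 genes were set beside 6 lists of other genes of the same pathways, 132 genes in all, of which 108 were tested, 4 were higher and 30 were lower in CUG200 cells. The share called lower was 27.8%, beside 8.73% of all tested genes, and the share called higher was 3.70%, beside 7.13%. The count of lower genes differed with the library left out and with the scale. It was 14, 16 and 10 without CUG5 library 1, 2 or 3, 18 without CUG200 library 1, 9 without CUG200 library 2 and 32 without CUG200 library 3, and it was 15 for log2(TPM + 1). In the smallest of these, without CUG200 library 2, the lower genes were 8.26% of the lists beside 2.90% of all genes. Over all genes the share called lower was between 2.45% and 10.7%, and the share called higher between 2.74% and 8.52%, in the 6 fits with a library left out. The median log2 fold change of the lists was -0.067, beside 0.015 over all genes. Over all genes, 1356 were higher and 1660 lower (45.0% higher), and with log2(TPM + 1) 427 were higher and 816 lower (34.4% higher).

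Among the other lipolysis and droplet proteins, 1 of 22 tested genes was higher, 4 were lower and 17 did not pass, and the median log2 fold change was 0.026. The count of lower genes was 0 without CUG5 library 1 or CUG200 library 2 and 1 without CUG5 library 2 or 3 or CUG200 library 1. It was 5 without CUG200 library 3, 2 with library sizes alone and 1 on either TPM scale. The higher gene was *Hilpda*, whose hypoxia-inducible product also binds and inhibits adipose triglyceride lipase and sits on droplets. It was at 13.5, 11.8 and 12.1 CPM in CUG5 libraries and at 29.8, 23.0 and 21.9 CPM in CUG200 libraries, a log2 fold change of 0.998 with a standard error of 0.139 (edgeR's quasi-likelihood test, adjusted p = 0.0037), and it stayed past the test with each library left out.

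*Fitm2*, which takes part in droplet budding from the endoplasmic reticulum, fell from between 27.1 and 32.8 CPM to between 17.3 and 21.8 CPM, a log2 fold change of -0.67 (adjusted p = 0.011). Its call was lost without CUG5 library 1 or CUG200 library 2. *Aup1*, a droplet protein of the ubiquitin pathway (-0.34, adjusted p = 0.026), *Ubxn8* (-0.44, adjusted p = 0.037) and *Spg20*, which encodes spartin (-0.32, adjusted p = 0.045), were also lower, and each of these 3 calls was lost in 5 of the 6 fits with a library left out, all but that without CUG200 library 3. *Plin5*, the perilipin of oxidative muscle, held at most 12 counts in a library and *Plin1*, that of adipocytes, at most 4, so neither was tested.

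Triglyceride synthesis had 7 of 16 tested genes lower and 0 higher, with a median log2 fold change of -0.18. *Gpd1*, which makes glycerol 3-phosphate, fell from 1.75, 2.36 and 2.19 CPM to 0.820, 0.618 and 0.722 CPM, a log2 fold change of -1.54 (adjusted p = 0.0060), past both cutoffs. It was -0.71 for log2(TPM + 1), a scale that understates changes of low genes. *Agpat3*, an acyltransferase of phosphatidic acid synthesis (-0.53, adjusted p = 0.0063), *Dgat2*, which adds the last fatty acid to diacylglycerol (-0.84, adjusted p = 0.012), and *Lpin2*, a phosphatidic acid phosphatase (-0.46, adjusted p = 0.014), were lower as well. The lower genes were 43.8% of the list, beside 8.73% of all genes. Their count fell to 2 without CUG5 library 3 (12.5%, beside 2.45% of all genes) and 3 without CUG200 library 2 (18.8%, beside 2.90%). It was 4 without CUG5 library 1 or 2. The call of *Dgat2* was lost without CUG5 library 3 and that of *Lpin2* without CUG5 library 1 or 3 or CUG200 library 2, whereas *Gpd1* and *Agpat3* passed in each of the 6 fits.

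Uptake, binding and activation of fatty acids had 5 of 17 tested genes lower and 0 higher, with a median log2 fold change of -0.17. Of the acyl-CoA synthetases, which activate fatty acids, *Acsl4* fell from between 319 and 367 CPM to between 219 and 231 CPM (-0.62, adjusted p = 0.0038), and *Acsl1* (-0.70, adjusted p = 0.025) and *Acsl5* (-0.34, adjusted p = 0.024) were lower. *Got2*, the mitochondrial aspartate aminotransferase that is also known as a fatty acid binding protein of the plasma membrane, fell from between 148 and 162 CPM to between 90.7 and 116 CPM (-0.62, adjusted p = 0.0074). *Acsl4* and *Got2* passed with each library left out, while *Acsl1* and *Acsl5* were each lost in 4 of the 6 fits, both of them without CUG5 library 1 or 2 or CUG200 library 2. The count of 5 became 2 without CUG5 library 1 or 2 or CUG200 library 2 and 3 without CUG5 library 3 or CUG200 library 1. It was also 3 with the replicate block and on either TPM scale. The lower genes were 29.4% of the list, beside 8.73% of all genes. Without CUG200 library 2 they were 11.1% beside 2.90%, and without CUG5 library 3 16.7% beside 2.45%. With DESeq2, 2 of 17 genes were called higher (11.8%, beside 10.4% of all genes).

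*Fabp5*, the epidermal-type relative of *Fabp3*, was at 18.3, 17.8 and 18.3 CPM in CUG5 libraries and at 23.8, 20.3 and 17.5 CPM in CUG200 libraries, with overlap and a log2 fold change of 0.18 (adjusted p = 0.38). The ratio of *Fabp5* to *Fabp3* in TPM was 0.762, 0.767 and 0.792 in CUG5 libraries and 1.14, 1.14 and 1.46 in CUG200 libraries, so the order of these carriers turned between the groups. *Fabp4*, the adipocyte form, was at 0 counts in the 6 libraries. *Angptl4*, the secreted inhibitor of lipoprotein lipase, was at 24.8, 23.4 and 22.4 CPM in CUG5 libraries and at 27.0, 28.2 and 23.1 CPM in CUG200 libraries, with overlap and a log2 fold change of 0.15 (adjusted p = 0.40). For log2(TPM + 1) it was -0.13, where the median over all tested genes was -0.062. *Gpihbp1*, which holds lipoprotein lipase on capillary endothelium, was at 0 counts.

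Fatty acid synthesis and desaturation had 8 of 14 tested genes lower and 0 higher. The median log2 fold change was -0.33, and its summed level was 1986 to 2135 TPM in CUG5 libraries and 1191 to 1747 TPM in CUG200 libraries. *Scd1* and *Scd2*, the desaturases that make oleate and palmitoleate, had log2 fold changes of -0.60 (adjusted p = 0.0088) and -0.67 (adjusted p = 0.0092). *Elovl6*, an elongase, fell from between 97.1 and 105 CPM to between 68.6 and 72.3 CPM (-0.51, adjusted p = 0.0045), and *Fads2*, a desaturase of polyunsaturated fatty acids, was lower (-0.48, adjusted p = 0.011). The lower genes were 57.1% of the list, beside 8.73% of all genes. The count fell to 2 without CUG5 library 3 (14.3%, beside 2.45% of all genes) or CUG200 library 2 (14.3%, beside 2.90%). It fell to 5 without CUG5 library 1 or 2 or CUG200 library 1. *Elovl6* passed in each of these fits, *Scd1* was lost without CUG5 library 3, *Scd2* without CUG200 library 2 and *Fads2* without either.

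Of 26 tested genes of the carnitine shuttle and of mitochondrial beta-oxidation, 2 were higher (7.69%, beside 7.13% of all genes), 3 were lower (11.5%, beside 8.73%) and 21 did not pass, and the median log2 fold change was 0.074. *Acadl*, the long-chain acyl-CoA dehydrogenase, fell from between 82.3 and 89.4 CPM to between 57.5 and 66.8 CPM (-0.47, adjusted p = 0.0098), and *Acot2*, a mitochondrial thioesterase, was lower (-0.79, adjusted p = 0.010), as was *Crat*, carnitine acetyltransferase (-0.42, adjusted p = 0.047). *Cpt1c*, the brain-type relative of *Cpt1b* (0.55, adjusted p = 0.017), and *Acot13*, another thioesterase (0.44, adjusted p = 0.027), were higher. The ratio of *Cpt1a*, the liver form, to *Cpt1b* in TPM was 2.38, 4.18 and 3.46 in CUG5 libraries and 2.72, 1.87 and 1.75 in CUG200 libraries, with overlap. *Acadl* lost its call without CUG200 library 2 and *Acot2* without CUG5 library 3, while *Cpt1c* lost it in 4, and *Crat* and *Acot13* in 5, of the 6 fits with a library left out. The higher count was 0 without any of the CUG5 libraries or CUG200 library 2, 1 without CUG200 library 1 and 3 without CUG200 library 3, and the lower count was 1 without CUG5 library 3 or CUG200 library 2 and 2 without CUG5 library 1 or 2 or CUG200 library 1.

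*Pnpla2*, *Plin2*, *Cd36*, *Lpl*, *Fabp3*, *Cpt1b* and *G0s2* are known targets of PPAR receptors, which sense fatty acids. Of the receptors, *Ppara* held at most 4 counts in a library and was not tested, *Ppard* had a log2 fold change of -0.26 (adjusted p = 0.58) and *Pparg* one of -0.093 (adjusted p = 0.72), both with overlap between the groups. Without CUG5 library 3 both had the other sign (0.12 and 0.021). Over the list of the family, its partners and other targets, 1 of 18 tested genes was higher and 4 were lower, and the median log2 fold change was -0.081. The lower genes were 22.2% of the list beside 8.73% of all genes, and 5.56% beside 2.45% without CUG5 library 3. The targets *Pdk4*, a kinase that holds back glucose oxidation (0.094, adjusted p = 0.55), and *Angptl4* did not pass. For log2(TPM + 1) *Pdk4* was at -0.032, beside a median of -0.062 over all tested genes. *Ppargc1a*, the co-activator of mitochondrial genes, fell from 8.41, 7.90 and 8.16 CPM to 4.20, 4.97 and 5.11 CPM (-0.78, adjusted p = 0.0082). *Ppargc1b*, its relative (-0.49, adjusted p = 0.047), and *Ucp2*, an uncoupling protein (-0.42, adjusted p = 0.014), were lower, and *Txnip*, the thioredoxin-interacting protein, rose from between 125 and 156 CPM to between 216 and 226 CPM (0.65, adjusted p = 0.0049). With a library left out, *Txnip* and *Ppargc1a* passed each time (*Ppargc1a* did not pass with log2(TPM + 1), at -0.52 and adjusted p = 0.082, or log2(TPM + 0.1), at -0.79 and adjusted p = 0.090), *Ucp2* was lost in 3 and *Ppargc1b* in 5 of the 6 fits, and the count of 4 lower genes was 1 without CUG5 library 3 and 2 without CUG5 library 1 or CUG200 library 2.

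**Figure D4:**
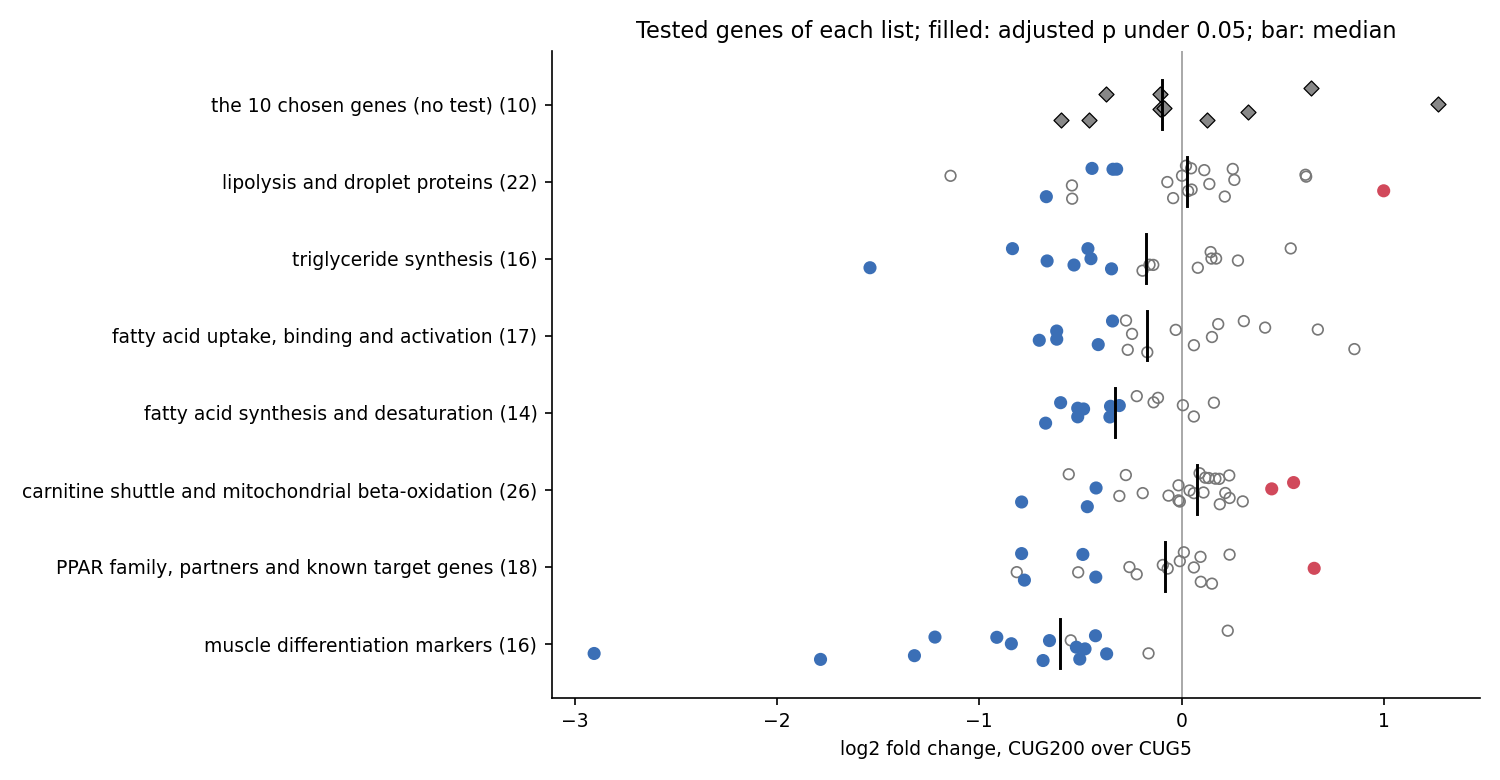
Log2 fold change (CUG200 over CUG5) of each tested gene of the lists, with the number tested in brackets, filled where the adjusted p was under 0.05 (red: higher, blue: lower) and with the median as a bar. The 10 chosen genes are shown as diamonds without a test. Among the pathway lists and the muscle markers, the medians run from -0.60 for muscle markers to 0.074 for the carnitine shuttle and beta-oxidation.

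Most markers of muscle differentiation were lower in CUG200 cells, while the 10 genes went in both directions. Their median log2 fold change was -0.60, and 13 of 16 were lower and 0 higher. Examples were *Myh8*, the perinatal myosin heavy chain, at 23.2 to 25.1 CPM in CUG5 and 2.89 to 3.76 CPM in CUG200 libraries (-2.90, adjusted p = 7.7e-05), *Actn2* (-1.22, adjusted p = 0.0021), *Ckm*, muscle creatine kinase (-0.84, adjusted p = 0.0016), *Acta1* (-0.91, adjusted p = 0.0036) and *Myog*, the myogenic regulator myogenin (-0.65, adjusted p = 0.0023). *Mylpf*, a fast myosin light chain and the marker with the highest mean TPM over the 6 libraries (*Acta1* was higher in CUG5 alone), had a log2 fold change of -0.16 (adjusted p = 0.40). *Mymx*, a fusion gene, went the other way without overlap, at 58.3 to 60.8 CPM in CUG5 and 67.3 to 73.5 CPM in CUG200 libraries. It did not pass (0.23, adjusted p = 0.073), nor did *Mymk* (-0.55, adjusted p = 0.30), which overlapped. Without CUG200 library 3, 1 of the 16 markers was called higher. *Tnnt3* (-0.37, adjusted p = 0.021) lost its call without any of the CUG5 libraries or CUG200 library 2. The count of 13 (81.25%, beside 8.73% of all genes) was 8 without CUG5 library 3 or CUG200 library 2. In those fits the share was 50% beside 2.45% and 2.90% of all genes. Within the CUG200 group the summed markers were highest in library 3 (11410 TPM). In that library *Pnpla2* was also highest (25.8 CPM), *Fabp3* was lowest (9.90 CPM), and the summed level of the pathway lists was 5531 TPM, against 4571 and 4503 TPM in CUG200 libraries 1 and 2. The part of the muscle markers in the results was not tested.

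**Figure D5:**
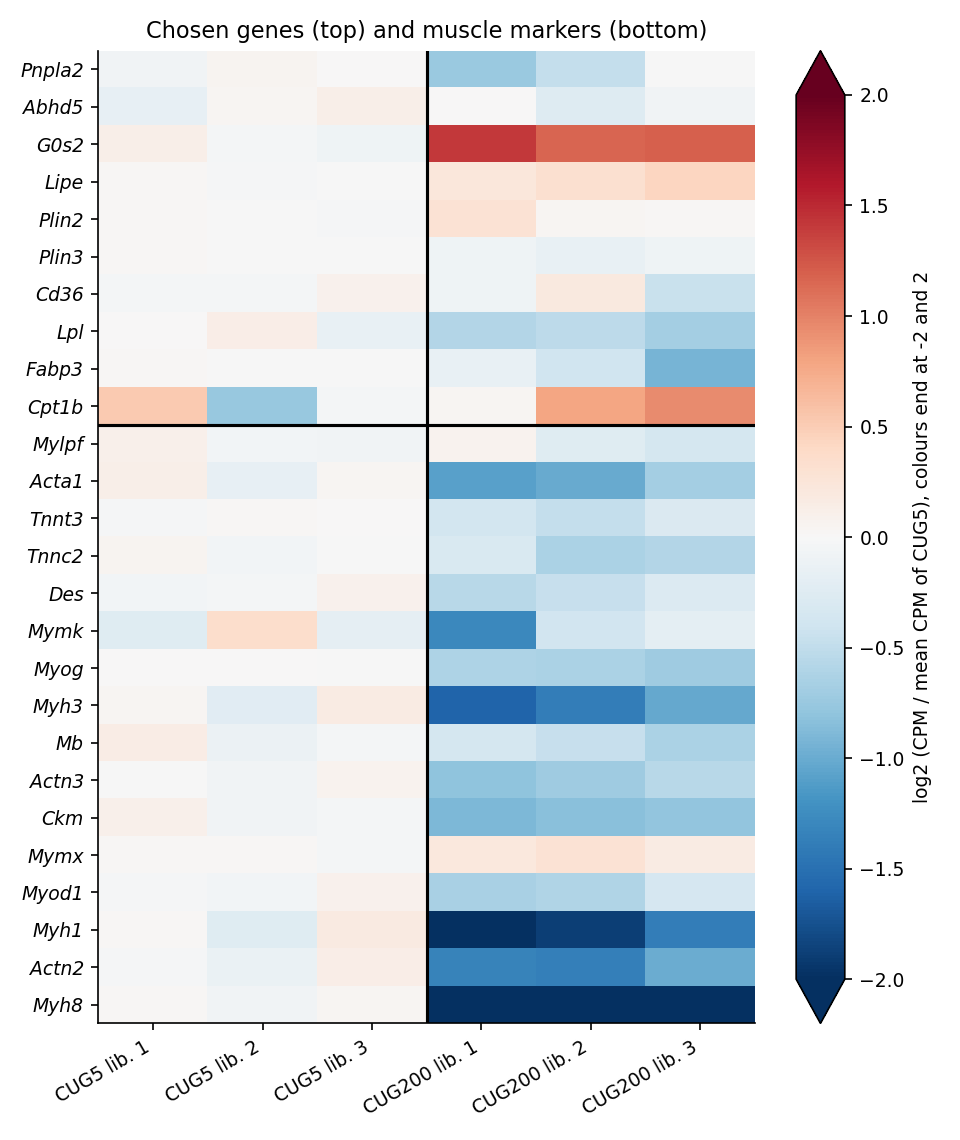
Each library's CPM over the mean CPM of the CUG5 group, on a log2 colour scale that ends at -2 and 2, for the 10 chosen genes (above the line) and 16 muscle markers in order of their level (below it). G0s2 is red in the 3 CUG200 libraries, while 13 of the 16 markers passed the test as lower there.

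Of 10 genes listed here as markers of undifferentiated myoblasts, 2 were higher, 1 was lower and 7 did not pass. Whether each of them marks undifferentiated cells alone was not tested. *Cd34* rose from between 59.1 and 78.0 CPM to between 125 and 156 CPM (0.97, adjusted p = 0.0031) and *Id2* was higher (0.41, adjusted p = 0.030), a call lost in 5 of the 6 fits with a library left out, while *Cdh15*, M-cadherin, fell from between 267 and 290 CPM to between 138 and 153 CPM (-0.95, adjusted p = 0.0010). *Itga7* (-0.20, adjusted p = 0.18) and *Ncam1* (-0.40, adjusted p = 0.072), which had the highest mean TPM of these markers, did not pass. Of 17 alternatives, *Ncam1* passed as lower in 3 and *Itga7* in 1. With a library left out, *Ncam1* went from -0.26 to -0.52. Among the markers of other cells that hold these lipid genes, 0 of 4 tested adipocyte markers (*Lipe* among them) and 0 of 3 tested macrophage markers passed, with *Adgre1* and *Ptprc* at 0 counts. Besides *Pparg* and *Lipe*, the markers of these lists with the highest levels were *Cebpa*, with a log2 fold change of 0.23 (adjusted p = 0.66), *Cd14* with 0.39 (adjusted p = 0.091) and *Cd68* with 0.076 (adjusted p = 0.84). *Cebpa* had the other sign without CUG5 library 1, and *Cd68* without CUG5 library 2 or CUG200 library 3. Of the endothelial markers 1 was tested, *Tek*, which was lower (-0.95, adjusted p = 0.011, lost without CUG200 library 2), with *Tie1* and *Gpihbp1* at 0 counts and a summed level of at most 4.23 TPM in a library.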

How the data were processed

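Groups, repeat lengths and replicate numbers came from the labels. The authors trimmed the reads (Trim Galore), aligned them to GRCm38 (HISAT2) and quantified them with StringTie, versions not given in the sources used here. They deposited counts per gene, not normalized, and for each library a table with the coverage (signal), FPKM and TPM of each gene. FPKM was not used. For 98.6% to 98.7% of the single-transcript genes with at least 20 counts, the deposited count was within 1 of coverage times length over 75, and the commonest low count was 4, read as 1 fragment, so counts exceed fragments in number. The TPM values that the authors deposited were used for levels, ratios and an alternative test.

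Genes were filtered with filterByExpr (minimum count 10), which left 19005 of 55421, and scaled by TMM (factors 0.940 to 1.05). CUG200 was compared with CUG5 with edgeR's quasi-likelihood test, fitted robustly and without covariates, and Benjamini-Hochberg adjustment over all tested genes, at an adjusted p under 0.05. The study used DESeq2 with an absolute log2 fold change over 1, which were alternatives here. CPM are counts scaled to the TMM-adjusted library totals. The other alternatives were other scalings and filters, a replicate block and a fit that was not robust. Limma-trend was run on the log2 of TPM with 1 or 0.1 added. In further fits, counts were divided by 4 or a library was left out. In another, the counts of each of the 10 genes were summed with those of genes whose spans overlap it on the same strand. No pair of libraries was as close as sampling noise, so each counts as 1 replicate. Motifs were searched in RefSeq promoter windows.

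The 10 genes, the lists and the alternatives were chosen with earlier results of these data known. Besides the 10 genes, the text names in each list the 4 genes with the smallest p in each direction among those past the test, up to 3 marker genes of highest TPM and those at 0 in each marker list, and the PPAR receptors, *Angptl4*, *Pdk4*, *Hilpda*, *Plin5*, *Fabp4* and *Fabp5* whatever their values. *Plin1*, *Gpihbp1* outside its marker list, and *Cpt1a* were added after their values were seen. The lists share 5 genes (*Angptl4*, *Acot2*, *Slc25a20*, *Cpt1a* and *Ech1*), counted once in the total. The fits used edgeR 4.0.16, limma 3.58.1 and DESeq2 1.42.0 in R 4.3.3. Tables and figures were made in Python 3.11.15 with numpy 2.4.6, pandas 2.3.3 and matplotlib 3.10.9.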

Additional observations from a re-analysis of the deposited data

How the results depend on the processing

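With log2(TPM + 1) and log2(TPM + 0.1), the log2 fold change of *G0s2* was 1.13 and 1.14, and that of *Lpl* with log2(TPM + 0.1) was -0.71. The median over all tested genes was -0.062 and -0.094 on these scales, beside 0.015 with edgeR on counts, so signs near 0 on them are not read. With a library left out, *G0s2* went from 1.20 to 1.33 and *Lpl* from -0.65 to -0.53. Of the 10 genes, 2 (*Lpl* and *Fabp3*) were called lower on either TPM scale, 1 to 2 with a library left out and 0 with the fold change cutoff. The pathway lists had 2 higher genes and 15 lower genes on either TPM scale, 2 to 5 and 9 to 32 with a library left out, and 0 and 1 with the cutoff. Over all genes, 427 were higher and 816 lower with log2(TPM + 1), 434 and 850 with log2(TPM + 0.1), 543 to 1678 and 485 to 2111 with a library left out, and 259 and 155 with the cutoff. The fold changes of *G0s2* and *Lpl* kept their sign in each of these fits. The balance over all genes did not, since higher genes outnumbered lower ones with the cutoff, without CUG5 library 3 (543 and 485) and without CUG200 library 2 (589 and 568). The cause of these differences was not tested. On both TPM scales the calls of *Aup1*, *Ubxn8*, *Spg20*, *Lpin2*, *Acsl5*, *Cpt1c*, *Acot13*, *Crat*, *Ppargc1a*, *Ppargc1b* and *Id2* were lost. With library sizes alone, 21 genes of the pathway lists were lower, 5 of them in the list of fatty acid synthesis and desaturation. The pathway lists had 25 lower genes in the fit that was not robust, and 6 higher and 32 lower genes with DESeq2. The deviations of libraries with the same number correlated at 0.0675, 0.0222 and 0.0263, so the numbers were not taken to pair the libraries. With the replicate block, 1326 genes were higher and 1497 lower, and among the 10 genes *G0s2* and *Lpl* were called again. In the pathway lists 4 genes were higher and 26 lower. The calls lost there included those of *Ubxn8* (adjusted p = 0.067) and *Acsl1* (adjusted p = 0.054).

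With 3 libraries in a group the least spread that can be measured is that of these libraries. *Lipe* and *Cpt1b* rest on the fewest counts of the 10 genes, and the strand setting of the counting bears on *Abhd5*, *Lipe* and *Fabp3*. RNA levels do not measure protein, droplet size or lipolysis.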
